A study of Mus musculus with 8 samples.

Results

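The aminoacyl-tRNA synthetases are the enzymes that load each amino acid onto its transfer RNA. The 35 synthetase genes described here were chosen by symbol, 20 for cytosolic enzymes and 15 for mitochondrial ones (the symbols ending in 2), and all 35 were found among the 38920 rows of each table. RNA-seq was run on sorted epithelial cells of the stomach, all of strain C57BL/6. The animals behind 4 libraries had a high fat diet (HFD 22, 23, 26 and 27), and those behind the other 4 were controls (control 15-17-18, 16, 19 and 20, titled ND). The labels give no age, sex, diet composition or length of feeding, and do not say whether each library is 1 animal. Control 15-17-18 could be a pool, going by its title. The p-values thus reflect only library-to-library spread, which may be technical.

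Each cytosolic amino acid has its own synthetase, except that Eprs joins the glutamate and proline enzymes in a single chain and that phenylalanine needs the subunits Farsa and Farsb. In animals, Eprs, Iars, Lars, Mars1, Qars, Rars, Kars and Dars sit with the scaffold proteins Aimp1, Aimp2 and Eef1e1 in the multisynthetase complex. Mitochondria charge their own transfer RNAs with separate, nuclear-encoded enzymes; Gars and Kars serve both compartments from 1 gene each, and mitochondrial glutamine is made on the transfer RNA by an amidotransferase. Many cytosolic synthetase genes are known targets of Atf4, the transcription factor that cells switch on when amino acids run short or folding in the endoplasmic reticulum is disturbed. The gastric mucosa makes large amounts of secreted protein, such as pepsinogen and mucins, and so depends on a steady supply of charged transfer RNA.

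The deposited log2 values are scaled to a common total in each library, and on that scale the median difference of all tested rows is 0.90. Controls 15-17-18 and 19 stood apart in composition: their top 20 rows held 85.7% and 59.1% of the total, where this share ran from 27.8% to 43.1% elsewhere. Values below are therefore log2(value + 1) after median-ratio scaling, which sets each library by its typical row, and a difference is HFD minus control on that scale. The shift of the median tested row was then 0.12, and that of the 11115 rows that set the scaling was 0.02. Genes of the stomach's own epithelium were abundant, which fits the label: their summed log2 level reached 21.39 in HFD and 21.12 in control libraries for chief cells, and 19.80 in HFD and 20.07 in control libraries for pit and neck cells. Parietal cell genes were at 17.49 to 18.07 in HFD and 17.63 to 18.18 in control libraries. In bulk RNA, fewer cells of a type and less RNA per cell cannot be told apart.

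Cytosolic synthetases were more abundant than mitochondrial ones. Per kilobase of transcript, the median log2 level over 8 libraries was 9.35 for the 20 cytosolic genes and 7.52 for the 15 mitochondrial genes. Wars, the tryptophan enzyme, was first at 10.57 ± 0.06 in HFD and 10.50 ± 0.16 in control libraries (SD, n = 4 each, log2 per kilobase). Vars (valine) followed at 10.37 ± 0.11 in HFD and 10.13 ± 0.33 in control libraries. Gars (glycine) was at 10.21 ± 0.03 in HFD and 10.17 ± 0.15 in control libraries, and Nars (asparagine) at 10.30 ± 0.06 in HFD and 10.04 ± 0.17 in control libraries. The mitochondrial valine enzyme Vars2 ranked 5 of 35 at 10.06 ± 0.21 in HFD and 10.17 ± 0.26 in control libraries, and in control libraries Vars, Gars, Nars and Vars2 lay within each other's spread. Iars2, the mitochondrial isoleucine enzyme, ranked 15 at 9.16 ± 0.07 in HFD and 9.20 ± 0.19 in control libraries, above 7 of the 20 cytosolic genes. At the low end of the mitochondrial genes stood Pars2 (proline) at 6.05 ± 0.14 in HFD and 5.76 ± 0.50 in control libraries, and Wars2 (tryptophan) at 5.90 ± 0.09 in HFD and 5.72 ± 0.08 in control libraries. Mars2 (methionine) was last at 4.13 ± 0.22 in HFD and 4.34 ± 0.19 in control libraries, but its annotated transcript of 11294 bases is longer than its RefSeq gene, so its level per kilobase is uncertain. Whether the authors had already divided their values by length is not given in the sources used here. Of the 12 amino acids with 1 gene for each compartment, the cytosolic gene was higher per kilobase in 11 by the mean of 8 libraries. For valine this did not hold for the mean of the control libraries alone. Without division by length the cytosolic gene was higher in each of the 8 libraries for 10 amino acids. For isoleucine it was lower both ways.

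**Figure D1:**
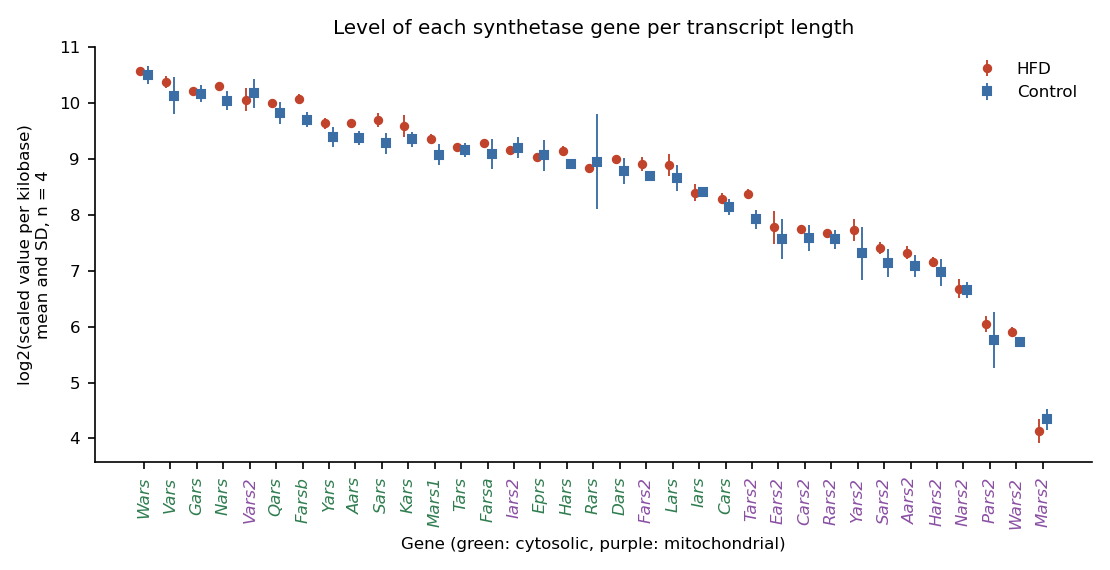
Level of the 35 synthetase genes as log2(scaled value per kilobase of transcript), as mean and SD of the 4 HFD (circles) and 4 control (squares) libraries, ordered by the mean of all 8. Cytosolic genes fill the left of the axis, with Vars2 and Iars2 the first mitochondrial genes in the order, and Mars2 is last.

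No synthetase gene passed the test over the whole table, and 29 of the 35 had a positive difference. All 35 were among the 27401 rows tested with limma. Of these rows 3, or 0.0109%, were called at an adjusted p under 0.05, and 0 of the 35 members were, the smallest adjusted p of a member being 0.25. At an unadjusted p under 0.05, 6 of 35 members were higher in HFD and 0 were lower, where 6.52% and 4.03% of all tested rows were. The 6 were Tars2, Farsb, Sars, Aars, Mars1 and Nars. In 6 members all 4 HFD libraries lay above all 4 control libraries, where 4.76% of all tested rows did so. In 0 members they lay below, where 3.09% of all tested rows did so. On the deposited scale the count above was 4, where 7.82% of all tested rows did so. Farsb, Aars, Mars1 and Hars, which were among the 6, overlapped on that scale. Under quantile normalization the count was 5, where 2.60% did so, and without control 20 it was 14, where 7.58% did so. The difference was positive in 29 of 35 members, where it was positive in 60.1% of all tested rows.

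The median difference was 0.21 over the 35 members, against 0.12 over all tested rows and 0.02 over the 11115 rows that set the scaling, which include all 35. The largest single difference, 0.46 for Tars2, is a 1.37-fold difference. The members also varied less between libraries than the rows that set the scaling, which were not matched to them by level. The median SD of a member was 0.09 in HFD and 0.19 in control libraries, against 0.16 and 0.27 for the rows that set the scaling. On the deposited scale 16 rows, or 0.0584%, were called, of which 0 were members. All 35 members were higher in HFD on that scale, with a median of 1.06 against the median of 0.90 of all tested rows, and 0 of them reached an unadjusted p under 0.05, where 9.25% of all tested rows did so and were higher. The count of 6 at an unadjusted p under 0.05 became 10 without control 20.

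**Figure D2:**
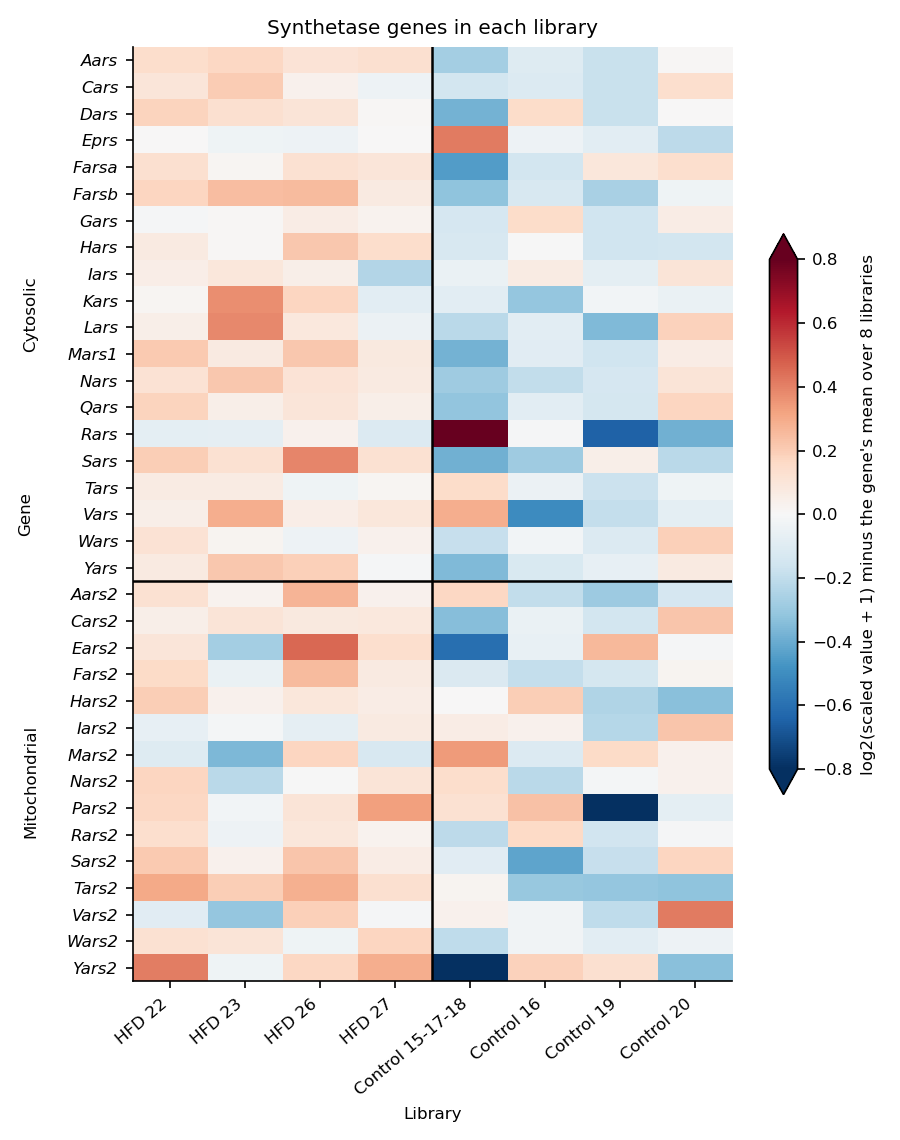
Each cell is log2(scaled value + 1) of a synthetase gene in 1 library minus that gene's mean over the 8 libraries, with HFD libraries left and control libraries right of the line, and cytosolic genes above mitochondrial ones. HFD columns are mostly slightly above the mean, control 20 is the control library closest to them, and Rars and Yars2 in control 15-17-18 and Pars2 in control 19 are the strongest departures.

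Library by library, the median over the 35 members of the departure from each gene's own mean was 0.11, 0.04, 0.10 and 0.06 in HFD 22, 23, 26 and 27. In control 15-17-18, 16, 19 and 20 it was -0.13, -0.08, -0.16 and 0.01. The groups did not overlap in this median, with control 20 and HFD 23 closest to each other. Over the 20 cytosolic genes the median was 0.09, 0.11, 0.10 and 0.03 in HFD libraries and -0.20, -0.09, -0.16 and 0.03 in control libraries, so control 20 fell among the HFD libraries. Over the 15 mitochondrial genes it was 0.14, -0.02, 0.17 and 0.07 in HFD libraries and 0.01, -0.05, -0.15 and -0.01 in control libraries, where HFD 23 fell among the controls.

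Of the cytosolic enzymes outside the multisynthetase complex, 12 of 12 differed in the positive direction (median 0.23). Farsb, the beta subunit of the phenylalanine enzyme (chromosome 1, 78417958 to 78488897, mm10), stood at 11.09, 11.16, 11.17 and 10.99 in HFD libraries and at 10.59, 10.79, 10.66 and 10.88 in control libraries. The groups did not overlap, and the difference was 0.37 ± 0.10 (SE, n = 4 each; limma adjusted p = 0.27). Its partner subunit Farsa stood at 10.15 ± 0.05 in HFD and 9.96 ± 0.27 in control libraries (SD, n = 4 each), with a difference of 0.18 ± 0.14 (SE) that was 0.06 without control 15-17-18. Farsb shares 248 exon bases with Sgpp2 on the other strand, and the sources used here do not say whether reads were counted by strand.

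Sars, the serine enzyme (chromosome 3, 108424864 to 108445259), stood at 11.52, 11.44, 11.72 and 11.44 in HFD libraries and at 10.94, 11.04, 11.37 and 11.11 in control libraries. Every HFD library was above every control library, with control 19 the nearest control, and the difference was 0.42 ± 0.12 (SE, n = 4 each; limma adjusted p = 0.29). Nars, the asparagine enzyme (chromosome 18, 64499655 to 64516515), stood at 11.74, 11.85, 11.74 and 11.70 in HFD libraries and at 11.34, 11.43, 11.49 and 11.73 in control libraries. Control 20 was level with the HFD libraries, and the difference was 0.26 ± 0.11 (SE; limma adjusted p = 0.44). Hars, the histidine enzyme (chromosome 18, 36766528 to 36783205), stood at 10.09, 10.03, 10.24 and 10.16 in HFD libraries and at 9.89, 10.02, 9.86 and 9.87 in control libraries. The groups touched without overlap between HFD 23 and control 16, and the difference was 0.22 ± 0.10 (SE; limma adjusted p = 0.48). Hars and its mitochondrial counterpart Hars2 lie head to head and share 195 exon bases, so part of their reads cannot be assigned without strand.

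Of the other cytosolic enzymes outside the complex, Vars and Yars (tyrosine) differed by 0.24 ± 0.16 and 0.24 ± 0.12, and Cars (cysteine) by 0.15 ± 0.11 (SE). Without control 15-17-18 the difference was 0.38 for Vars and 0.16 for Yars. The difference was smallest in Gars, Tars (threonine) and Wars, at 0.04 ± 0.10, 0.05 ± 0.10 and 0.06 ± 0.11 (SE), and without that library at 0.006, 0.11 and 0.01. Wars is also known as an interferon-induced gene. It stood at 12.15, 12.06, 11.99 and 12.07 in HFD libraries and at 11.85, 12.01, 11.92 and 12.22 in control libraries, with control 20 the highest of all.

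Among the 8 enzymes of the multisynthetase complex 5 differences were positive and 3 negative, with a median of 0.20. Mars1, the methionine enzyme that also charges the initiator transfer RNA (chromosome 10, 127296221 to 127311786), stood at 11.00, 10.86, 11.00 and 10.86 in HFD libraries and at 10.41, 10.70, 10.62 and 10.84 in control libraries. The groups were separated only by the gap between control 20 and HFD 23 and 27, and the difference was 0.29 ± 0.12 (SE, n = 4 each; limma adjusted p = 0.43). Mars1 shares 68 exon bases on the other strand with Ddit3, the gene of the stress transcription factor CHOP, which stood at 7.09 to 7.57 in HFD and 7.07 to 7.62 in control libraries. Kars (lysine), Lars (leucine), Dars (aspartate) and Qars (glutamine) differed by 0.24 ± 0.13, 0.24 ± 0.14, 0.21 ± 0.13 and 0.19 ± 0.12 (SE). For Dars and Qars the difference was 0.11 without control 15-17-18.

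The 3 negative differences in the complex were those of Iars (isoleucine), Eprs and Rars (arginine), at -0.02 ± 0.11, -0.04 ± 0.14 and -0.11 ± 0.36 (SE). Rars stood at 9.90, 9.90, 10.01 and 9.87 in HFD libraries and at 11.25, 9.96, 9.33 and 9.59 in control libraries. Control 15-17-18 was far above the rest, and without it the difference of Rars was 0.29. Eprs was also highest in control 15-17-18, at 11.76 against 11.13 to 11.34 in the other 7 libraries, and differed by 0.09 without it. The scaffold genes Aimp1, Aimp2 and Eef1e1 all had positive differences. Of these 1, Aimp2, was higher at an unadjusted p under 0.05, where 6.52% of all tested rows were, and its groups overlapped. Aimp2 stood at 8.48, 8.57, 8.73 and 8.74 in HFD libraries and at 6.98, 7.91, 8.33 and 8.48 in control libraries, a difference of 0.71 ± 0.30 (SE) that became 0.39 without control 15-17-18. Aimp1 and Eef1e1 differed by 0.26 ± 0.16 and 0.18 ± 0.21 (SE).

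**Figure D3:**
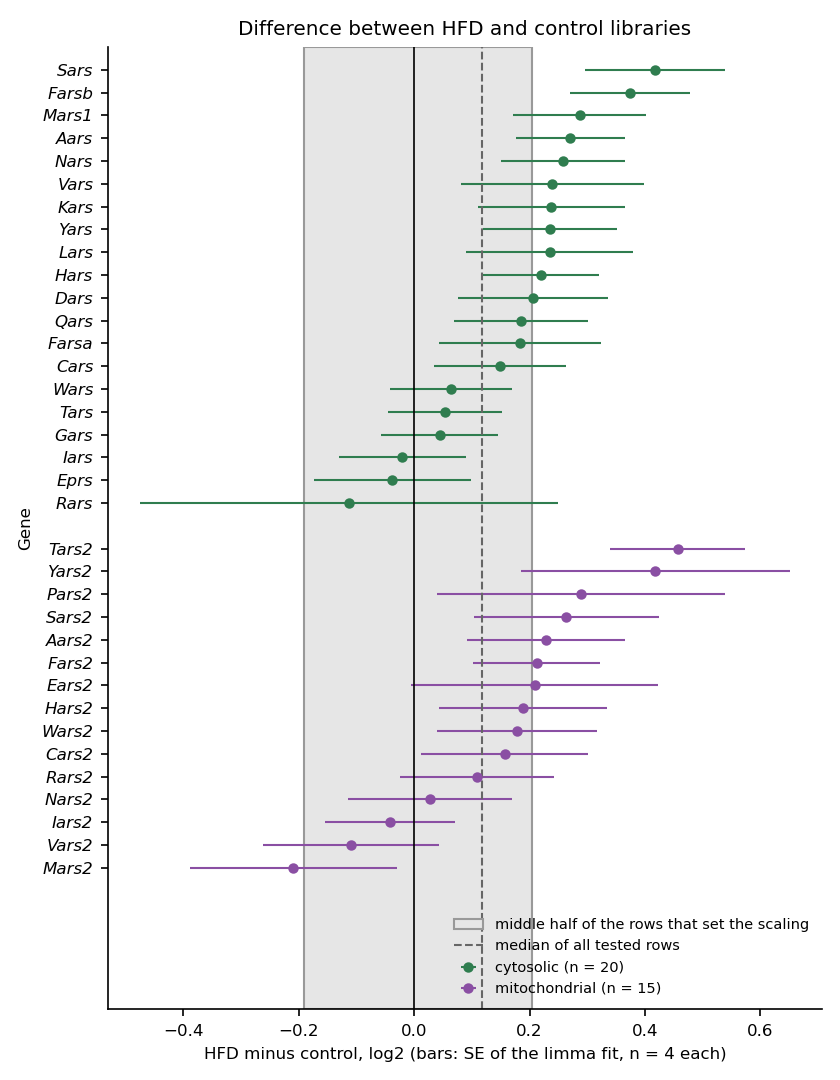
HFD minus control difference (log2) of each synthetase gene with the SE of the limma fit, cytosolic genes above mitochondrial ones, each ordered by size. The grey band spans the quartiles of the rows that set the scaling, from -0.19 to 0.20, and the dashed line the median of all tested rows at 0.12; Tars2, Yars2 and Sars lie farthest right and Mars2 farthest left.

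The alanine enzyme Aars (chromosome 8, 111027778 to 111055569) stood at 12.17, 12.20, 12.14 and 12.16 in HFD libraries and at 11.76, 11.93, 11.85 and 12.04 in control libraries. The HFD libraries were nearly level, all above the highest control, and the difference was 0.27 ± 0.09 (SE, n = 4 each; limma adjusted p = 0.36). Aars shares 1326 exon bases with Exosc6, an exosome subunit gene on the same strand, so reads there could come from either gene. Among the members at an unadjusted p under 0.05 that have a promoter window, Aars was the 1 with a promoter match to the amino acid response motif, the C/EBP-ATF composite bound by Atf4, searched as TGATGNAA on both strands. Its promoter window is shown whole because it holds the motif 2 times, in capitals (RefSeq, GRCm38.p6, plus strand, chr8:111033592-111033891, 250 bases before the transcript start and 50 after it).
Aars: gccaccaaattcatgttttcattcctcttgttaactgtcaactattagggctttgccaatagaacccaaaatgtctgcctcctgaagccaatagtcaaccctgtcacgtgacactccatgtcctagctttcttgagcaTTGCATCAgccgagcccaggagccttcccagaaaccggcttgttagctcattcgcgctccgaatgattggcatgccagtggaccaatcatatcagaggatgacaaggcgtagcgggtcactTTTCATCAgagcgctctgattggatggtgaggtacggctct

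The same motif was found in the windows of 5 of the 13 cytosolic genes that have one in the RefSeq table and in 0 of the 13 mitochondrial genes, where 4.51% of the 27025 genes in that table hold it. With a share that low over all genes, 0 of 13 is not set apart from it, and the difference between the compartments was not tested. The other 4 cytosolic genes were Gars, Iars, Tars and Yars. Their 60-base stretches around the match, with the match in capitals, are shown so that the matches can be compared (chr6:55037945-55038004 and chr13:49682111-49682170 on the plus strand, chr15:11399640-11399699 on the minus strand, and chr4:129189880-129189939 on the plus strand, all GRCm38.p6).
Gars: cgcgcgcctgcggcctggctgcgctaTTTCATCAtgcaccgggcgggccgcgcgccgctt
Iars: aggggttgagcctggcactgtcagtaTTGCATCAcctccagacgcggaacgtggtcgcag
Tars: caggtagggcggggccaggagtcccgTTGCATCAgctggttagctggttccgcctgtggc
Yars: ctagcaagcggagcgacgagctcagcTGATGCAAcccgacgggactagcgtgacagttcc

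The match begins 112 bases before the transcript start in Aars, 30 and 15 bases before it in Gars and Tars, and 7 and 3 bases after it in Iars and Yars. The differences of these 4 genes were 0.04 ± 0.10 for Gars, -0.02 ± 0.11 for Iars, 0.05 ± 0.10 for Tars and 0.24 ± 0.12 for Yars (SE). Farsb, Sars, Mars1 and Tars2, which differed by more than Aars, had no match in their windows. A match is a description of these letters and not a site shown to be used.

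Mitochondrial synthetases had a median difference of 0.19, with 12 of 15 positive. Under quantile normalization this median was 0.12, and that of the cytosolic genes 0.23. Tars2, the mitochondrial threonine enzyme (chromosome 3, 95739974 to 95756365), had the smallest p of all members. It stood at 10.14, 10.04, 10.12 and 9.97 in HFD libraries and at 9.86, 9.53, 9.53 and 9.52 in control libraries. All HFD libraries were above all controls, of which 15-17-18 was the highest, and the difference was 0.46 ± 0.12 (SE, n = 4 each; limma adjusted p = 0.25), or 0.54 without that library. It was positive, at 1.31 ± 0.74 (SE), on the deposited scale as well, again without overlap.

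Yars2, the tyrosine enzyme, had the next largest mitochondrial difference, 0.42 ± 0.23 (SE), but stood at 8.59, 8.15, 8.35 and 8.47 in HFD libraries and at 7.37, 8.36, 8.31 and 7.84 in control libraries. Controls 16 and 19 were among the HFD libraries, and without control 15-17-18 the difference was 0.22. Pars2 was at 7.50 to 7.85 in HFD and 7.44 to 7.76 in 3 control libraries, and at 6.67 in control 19, with a difference of 0.29 ± 0.25 (SE) that was 0.05 without control 19. Sars2, Aars2, Fars2 and Ears2 differed by 0.26 ± 0.16, 0.23 ± 0.14, 0.21 ± 0.11 and 0.21 ± 0.21 (SE). Ears2 was lowest in control 15-17-18, at 8.11, and differed by 0.04 without it. Hars2, Wars2, Cars2 and Rars2 ran from 0.11 to 0.19, with 0.07 for Cars2 and 0.06 for Rars2 without that library, and Nars2 was at 0.03 ± 0.14.

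The negative mitochondrial differences were those of Iars2, Vars2 and Mars2, at -0.04 ± 0.11, -0.11 ± 0.15 and -0.21 ± 0.18 (SE). Mars2 stood at 7.64, 7.38, 7.91 and 7.61 in HFD libraries and at 8.08, 7.63, 7.89 and 7.77 in control libraries, with overlap, and differed by -0.13 without control 15-17-18. Iars2 shares 2034 exon bases with Rab3gap2 on the other strand, and Vars2 shares 296 with the antisense gene Gm20483. By structure, all 17 class II enzymes and 12 of the 17 class I enzymes were positive, where 60.1% of all tested rows were. The class II and class I medians were 0.23 and 0.16, or 0.22 and 0.11 without control 15-17-18. The difference between the classes was not tested. Eprs carries a domain of each class and was put in neither.

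The ratio of the cytosolic to the mitochondrial gene for the same amino acid compares 2 rows of 1 library, so apart from the pseudocount it does not depend on the scaling. Over the 12 pairs the ratio was higher in HFD for 7 and lower for 5, or for 6 and 6 without control 15-17-18, and the median change was 0.03 on the log2 scale. For threonine, the log2 ratio of Tars to Tars2 was 1.12, 1.22, 1.03 and 1.24 in HFD libraries and 1.48, 1.61, 1.49 and 1.64 in control libraries. The groups did not overlap, with means of 1.15 ± 0.10 in HFD and 1.56 ± 0.08 in control libraries (SD, n = 4 each) and a change of -0.40. For methionine the ratio of Mars1 to Mars2 was 3.36, 3.47, 3.09 and 3.25 in HFD libraries and 2.32, 3.07, 2.73 and 3.07 in control libraries. These groups did not overlap either, with HFD 26 just above controls 16 and 20, and the change was 0.50, or 0.34 without control 15-17-18. The other 10 pairs overlapped, with changes from -0.22 for arginine to 0.35 for valine. The arginine ratio was 2.94 in control 15-17-18 and 0.96 to 1.29 in the other controls, and without that library its change was 0.24. The pair ratios were given no test. How often the ratios of other pairs of rows separate the groups was not counted, so the threonine and methionine pairs are not shown to stand out.

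**Figure D4:**
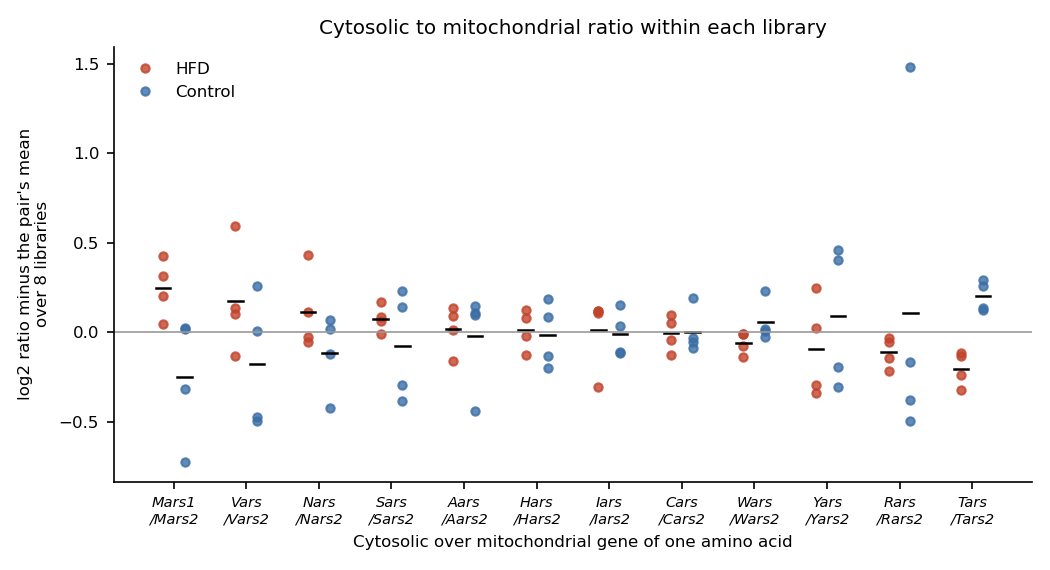
Log2 ratio of the cytosolic to the mitochondrial gene of each of 12 amino acids in every library, minus the pair's mean over the 8 libraries, with HFD points left of control points and a line at each group mean. Mars1 over Mars2 at the left and Tars over Tars2 at the right are the pairs whose groups do not overlap, and the high control point of Rars over Rars2 is control 15-17-18.

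In the list of 8 synthetase and transamidation genes outside the 35 members, 2 were higher and 0 lower at an unadjusted p under 0.05, where 6.52% and 4.03% of all tested rows were, and 0 were called. Gatb, a subunit of the mitochondrial amidotransferase, was 1 of those 2, with a difference of 0.43 ± 0.13 (SE). Gatb stood at 8.67, 8.55, 8.39 and 8.42 in HFD libraries and at 8.05, 8.13, 8.11 and 8.02 in control libraries, without overlap. The row named for Lars2 stood at 17.88 to 19.99 in HFD and at 18.51 to 23.88 in control libraries, where the 35 members spanned 6.67 to 12.68. It was highest in controls 15-17-18 and 19, at 23.88 and 21.21, and is not among the 35 members. Of 12 mitochondrial translation factors 10 differences were positive, with a median of 0.17, and 1 was higher at an unadjusted p under 0.05, that of Mrpl58, a peptidyl-tRNA hydrolase of the mitochondrial ribosome, at 0.45 ± 0.18 (SE).

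On the cytosolic side, differences were positive in 8 of 8 genes of transfer RNA delivery and elongation (median 0.25), of which 0 were called. Eef1b2, the exchange factor that recharges the elongation factor carrying transfer RNA, was the 1 member at an unadjusted p under 0.05. It stood at 11.71, 11.57, 11.83 and 11.73 in HFD libraries and at 10.24, 11.04, 11.32 and 11.22 in control libraries, without overlap, a difference of 0.76 ± 0.21 (SE; limma adjusted p = 0.28), or 0.52 without control 15-17-18. Of 47 genes of transfer RNA processing and modification 35 differences were positive, with a median of 0.13, and 3 were higher and 0 lower at an unadjusted p under 0.05, a share near the 6.52% of all tested rows. These were Thg1l, which adds the extra guanine of histidine transfer RNA, at 0.63 ± 0.19, and the RNase P subunits Pop1 and Rpp38 at 0.40 ± 0.17 and 0.72 ± 0.32 (SE).

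Of the 36 genes in the list of Atf4 and its known targets, 9 were higher and 4 lower in HFD at an unadjusted p under 0.05, where 6.52% and 4.03% of all tested rows were, 0 were called, and the median difference was 0.12, equal to that of all tested rows. Psat1, an enzyme of serine synthesis, stood at 8.99, 9.23, 8.87 and 8.84 in HFD libraries and at 7.61, 8.26, 8.47 and 8.19 in control libraries. All HFD libraries were higher, and the difference was 0.85 ± 0.20 (SE; limma adjusted p = 0.21). Nupr1, a small stress-induced chromatin protein, and Ddit4, an inhibitor of mTOR signalling, differed by 1.08 ± 0.25 and 0.64 ± 0.16 (SE), with overlap for Nupr1 between HFD 27 and control 19. In the other direction, Slc7a11, the cystine importer, stood at 6.64, 7.01, 6.24 and 6.51 in HFD libraries and at 7.39, 7.84, 7.19 and 7.53 in control libraries, without overlap, a difference of -0.89 ± 0.24 (SE; limma adjusted p = 0.26) that was -0.04 on the deposited scale. The other 3 lower genes, Stc2, Slc6a9 and Slc1a4, were at 0.39, 0.47 and 0.49 on the deposited scale, where the list's median was 0.97, so their direction depends on the scaling.

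Asns, asparagine synthetase and a standard readout of this response, was named after its values were seen. It stood at 11.84, 11.61, 11.56 and 11.68 in HFD libraries and at 10.65, 11.35, 11.39 and 11.00 in control libraries, a difference of 0.57 ± 0.17 (SE) without overlap. Atf4 RNA itself was at 11.63 to 11.96 in HFD and 11.52 to 12.34 in control libraries, with a difference of -0.14 ± 0.18 (SE). Of the 14 genes of upstream signalling, which are the eIF2 kinases, eIF2 alpha, its phosphatase regulator and mTOR pathway genes, 4 differences were positive, with a median of -0.12, and 0 were higher and 2 lower at an unadjusted p under 0.05, where 6.52% and 4.03% of all tested rows were. Ppp1r15b, which directs the phosphatase of initiation factor eIF2, was at 11.91 to 11.98 in HFD and 12.17 to 12.32 in control libraries, and Rragc, a GTPase that brings mTOR to the lysosome, differed by -0.39 ± 0.14 (SE). On the deposited scale these 14 genes had a median of 0.74, with 0.56 for Ppp1r15b and 0.47 for Rragc, so their direction depends on the scaling.

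**Figure D5:**
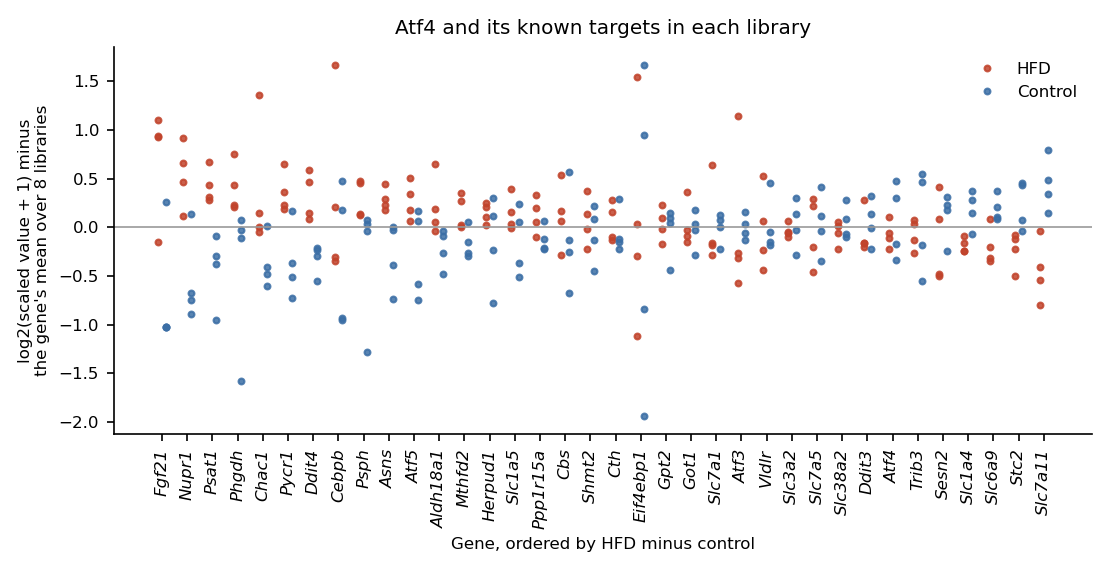
Log2(scaled value + 1) of Atf4 and 35 of its known targets in every library minus each gene's mean over the 8 libraries, HFD points left of control points, ordered by the HFD minus control difference. Fgf21, Nupr1 and Psat1 are at the high end and Slc7a11 and Stc2 at the low end, with Atf4 among the genes slightly lower in HFD. Fgf21, which is 1 of the 9 higher genes, is near the floor. It is at 0 in controls 15-17-18, 19 and 20 and at 0.87 to 2.13 in HFD libraries.

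Marker lists of other cells are given for the same libraries, and 0 genes of any of these lists were called. Genes of proliferating cells had a median difference of 0.61, with 11 of 13 higher at an unadjusted p under 0.05, where 6.52% of all tested rows were. Fibroblast and smooth muscle genes had a median of 1.35, with 8 of 14 higher at that threshold. In 7 of 14 all HFD libraries lay above all control libraries, where 4.76% of all tested rows did so. The summed levels of this list, 12.43 to 13.18 in HFD and 10.86 to 13.07 in control libraries, overlapped. Its contractile genes Des and Acta2 differed by 2.71 ± 0.72 and 2.05 ± 0.42 (SE). Its collagen genes Col1a1, Col1a2 and Col3a1 differed by only -0.14 ± 0.55, 0.28 ± 0.54 and 0.11 ± 0.52, and Dcn by 0.82 ± 0.34 (SE). Forestomach squamous genes had a median of 1.93, with 4 of 12 higher, and summed levels of 11.25 to 12.42 in HFD and 7.48 to 11.38 in control libraries. Chief cell genes had a median of 0.77, with 4 of 10 higher. Pancreatic acinar genes had a median of 0.86, with 6 of 16 higher and 6 of 16 negative, and summed levels of 16.82 to 17.53 in HFD and 15.52 to 16.72 in control libraries. That sum rests on Clps, the colipase gene, at 16.74 to 17.45 in HFD and 15.39 to 16.60 in control libraries, where no other gene of the list passed 11.84 in any library. The trypsinogen gene Try10 differed by 1.70 ± 0.27 (SE), the lipase gene Cel by -0.42 ± 0.32 and the amylase gene Amy2b by -0.98 ± 0.50, while the carboxypeptidase gene Cpa1 was at 0 in 4 of 8 libraries. Leukocyte genes were at 12.67 to 12.92 in HFD and 12.69 to 13.11 in control libraries, with Igkc listed at 0 in all libraries, and endothelial genes at 10.79 to 11.40 in HFD and 9.89 to 11.71 in control libraries. Enteroendocrine genes were at 15.60 to 16.39 in HFD and 15.53 to 16.61 in control libraries, and tuft cell genes at 12.62 to 13.16 in HFD and 12.48 to 14.15 in control libraries. Median differences were negative for tuft (-0.43, 1 of 10 positive), parietal (-0.17, 3 of 14) and pit and neck cell genes (-0.12, 3 of 10). At an unadjusted p under 0.05, 0, 3 and 2 of them were lower, where 4.03% of all tested rows were. Muc5ac, of the pit and neck list, differed by -1.61 ± 0.35 (SE) without overlap. On the deposited scale these medians were 0.43, 0.69 and 0.74, and Muc5ac was at -0.75. The part of these cell types in the differences of the synthetase genes was not tested.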

How the data were processed

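RNA-seq of rRNA-depleted total RNA from sorted cells was deposited as 1 table per library with 1 column of values. The authors deposited log2 values, normalized per the file headers; the base was read from the antilogs, which sum to 36.88 M in every library. Values of 0 are a floor and were taken as 0. The submitters' processing notes name mm10 and bedtools 2.17.0; aligner, annotation, normalization method and read depth are unstated in what was used here, so no count test was run. Row numbers were matched to RefSeq genes of GRCm38.p6, the assembly of mm10 (32891 of 35720). Transcript lengths are the longest RefSeq-linked transcript of GENCODE for the same assembly.

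Scaling used the 11115 rows whose value exceeded 30 in every library: each library's factor is the median, over these rows, of its value over the row's geometric mean. The 27401 rows that reached 1 in 4 or more libraries were tested on log2(value + 1) with limma 3.58.1 (trend, robust; R 4.3.3), group being the only term. P-values were adjusted by Benjamini-Hochberg over all of them at 0.05. The test was tried on simulated data, but with added differences much larger than those of the synthetase genes. That trial thus does not show whether differences of their size would be found. Such fold changes understate low genes. Members, lists, scaling and tests were chosen with earlier results of these data known. Members at an unadjusted p under 0.05 or without overlap between groups are given in every library, and from each list at most the 4 genes of smallest p under 0.05; Rars, Eprs, Yars2, Pars2, Mars2, Wars, Asns, Atf4, Lars2, 3 further Atf4 targets and the marker genes named were given more values after these were seen. Protein sequences were not used here. The values of 1 listed gene are not reported here. No replicate numbers are shared between groups, no batch is labelled, and no libraries were identical (Spearman correlations 0.845 to 0.98).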

Additional observations from a re-analysis of the deposited data

Results flagged for a closer look

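Of 70 sets of 4 values (35 genes in 2 groups), 2 had a library set apart from the other 3 by more of the whole range than Dixon's critical value allows; chance flags about 1 in 20 such sets. Iars in HFD was 10.32 in HFD 27, against 10.60 to 10.64 in the other HFD libraries. Tars2 in control was 9.86 in control 15-17-18, against 9.52 to 9.53 in the other controls.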

How the results depend on the processing

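Under the 13 alternatives 0 synthetase genes were called, the smallest adjusted p being 0.17, and 27 of the 35 kept their direction. The count of all called rows, 3, was 16 on the deposited scale, 1 without limma's trend and robust options, and 2 to 5 with 1 library left out, the 5 being without control 16. The count of 6 synthetase genes at an unadjusted p under 0.05 was 0 on the deposited scale, 3 without those options, and 4 to 10 with 1 library left out, the 10 being without control 20. The median cytosolic difference was 1.07 on the deposited scale and 0.18 to 0.26 with 1 library left out. The mitochondrial median was 1.04 on the deposited scale, 0.12 under quantile normalization and 0.14 to 0.22 with 1 left out. On the deposited scale the differences of Eprs, Iars, Rars, Iars2, Mars2 and Vars2 turned positive, at 0.82, 0.84, 0.74, 0.81, 0.64 and 0.75, all below that scale's median row of 0.90. Quantile normalization gave 0.021 for Eprs, 0.0053 for Iars, 0.021 for Iars2 and -0.080 for Nars2, which had been 0.03. With 1 library left out, the difference ran from -0.11 to 0.094 for Eprs, -0.0015 to 0.10 for Gars, -0.054 to 0.054 for Iars, -0.35 to 0.29 for Rars, -0.12 to 0.026 for Iars2, -0.040 to 0.10 for Nars2 and -0.20 to 0.0099 for Vars2. The median change of the pair ratios stayed between -0.0047 and 0.069. The cause of these changes was not tested. Read depth is unknown; control 15-17-18 had the most rows at 0, 16479, against 10047 to 14005 in the other 7 libraries.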
